A study of Mus musculus with 4 samples.

Results

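Leydig cell identity and hormone genes were followed in whole testes of adult mice, as a set of 8: Insl3, Lhcgr, Nr5a1, Prlr, Inha, Hao2, Hsd11b1 and Akr1b7. They were taken as every probe set of the array that the platform annotation pairs with these symbols. Of the 8 genes, 5 had a probe set, among 20556 genes named on the array. Inha, Nr5a1, Hao2 and Hsd11b1 had 1 probe set each of their own, and Insl3 was on 1 probe set together with Jak3. Lhcgr, Prlr and Akr1b7, 3 genes in all, were not named in the annotation used here and have no value below. The groups were Azin2 knock out (KO) mice, which carry a β-Geo cassette within the Azin2 locus on a mixed C57BL/6 background, and Azin2 wild type (WT) mice, and no treatment is named for either. The 4 arrays (Affymetrix Mouse Gene 1.1 ST) were shared equally between genotypes, and the RNA on each came from a pool of 3 mice. The values are normalized log2 signals per probe set, and a log2 difference is the KO mean minus the WT mean. The sources do not say whether WT mice were littermates, and the insertion is carried by all cells of the KO mice. With 2 pools for each genotype, the p-values measure the spread between pools. Those from limma take part of that spread from all named probe sets, so it is not the gene's own alone.

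Leydig cells lie between the seminiferous tubules and make testosterone when luteinizing hormone binds its receptor, the product of Lhcgr. The nuclear receptor SF-1, encoded by Nr5a1, is the factor that sets the steroid-producing fate in gonads and adrenals and drives many genes of steroid synthesis. Mature Leydig cells also secrete INSL3, a peptide hormone of the relaxin family that brings about testis descent, and carry prolactin receptors. The inhibin α subunit, encoded by Inha, pairs with a β subunit to form inhibin, the hormone that restrains follicle-stimulating hormone, and is made in Sertoli cells as well as in Leydig cells. Among the enzymes, Hsd11b1 interconverts active and inactive glucocorticoids, Hao2 is a peroxisomal oxidase of 2-hydroxy acids, and Akr1b7 is an aldo-keto reductase first known from the mouse vas deferens and the adrenal cortex.

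In the RefSeq annotation of GRCm38.p6, Insl3 lies on chromosome 8 from base 71689252 to base 71690577, and Jak3, the gene of a cytokine receptor kinase, runs from 71676383 to 71690577 on the same strand. The Insl3 interval is therefore inside that of Jak3, and a signal from their common probe set cannot be given to either gene. Windows of 250 bases before a transcript start were read from the RefSeq promoter table, which held a window for 7 of the 8 genes and none for Nr5a1. The starts used in that table for Inha, Hao2 and Hsd11b1 lie within the gene intervals given here, so their windows are inside the genes and do not read the sequence before the outermost start. The Lhcgr window overlaps its gene in part, and of the Prlr windows only the first precedes the gene. Each was searched on both strands for 4 motifs. AAGGTCA is the kind of site that SF-1 binds as a monomer, TGACGTCA is the cyclic AMP response element, AGATAA is bound by the GATA family, and the TATA box was searched as TATAAA. Of all 32851 windows in the table, 4.08% held the first, 1.55% the second, 9.99% the third and 12.4% the last. Among the windows of the 8 genes there was 1 match, an AAGGTCA on the reverse strand of the Akr1b7 window, which begins 248 bases before the start and reads TGACCTT on the strand of the gene. With 1 match there was no overlap between motifs. The window of Insl3 is printed because it lies wholly inside the Jak3 interval, and that of Akr1b7 for its match, in capitals.
Insl3: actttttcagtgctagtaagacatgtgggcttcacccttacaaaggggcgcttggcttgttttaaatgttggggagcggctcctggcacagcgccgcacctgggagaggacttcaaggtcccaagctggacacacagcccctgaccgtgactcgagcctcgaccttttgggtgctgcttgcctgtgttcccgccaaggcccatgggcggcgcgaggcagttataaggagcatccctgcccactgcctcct
Akr1b7: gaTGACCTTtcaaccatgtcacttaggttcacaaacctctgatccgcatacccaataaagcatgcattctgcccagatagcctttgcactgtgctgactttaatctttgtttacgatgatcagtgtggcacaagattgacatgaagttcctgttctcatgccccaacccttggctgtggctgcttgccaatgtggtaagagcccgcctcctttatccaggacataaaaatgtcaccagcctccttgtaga
The Insl3 window is chr8:71689002-71689251 and the Akr1b7 window chr6:34412112-34412361 in GRCm38.p6, both on the plus strand.

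No difference between KO and WT testes was detected for any of the 5 probe sets. By limma, with p-values adjusted by the Benjamini-Hochberg method over 23099 named probe sets, 0 of the 5 passed an adjusted p of 0.05, against 1 of all those tested (0.00433%), and 0 of the 5 had an unadjusted p under 0.05 by limma or by the ordinary equal-variance model (4.1% of all by limma). In 0 of the 5 did the KO arrays lie wholly above or below the WT arrays, which held in 32.5% of all named probe sets.

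Inha, on chromosome 1 (bases 75507077 to 75510366), had signals of 10.49 and 10.56 in KO replicates 1 and 2, against 10.51 and 10.40 in WT replicates 1 and 2. The genotypes overlapped, and WT replicate 2 was the lowest of the 4 arrays. The means were 10.52 ± 0.05 in KO testes and 10.46 ± 0.07 in WT testes (SD, n = 2 pools each). Its log2 difference was 0.067 (standard error, SE, of 0.061, adjusted p = 0.9995 from limma), and the 95% interval of the fold was 0.939 to 1.17.

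Nr5a1, on chromosome 2 (bases 38692656 to 38714542), had signals of 7.46 and 7.79 in the KO arrays, against 7.77 and 7.63 in the WT arrays. The highest and the lowest of the 4 values were both KO, and the WT pair lay between them. Its means were 7.62 ± 0.23 in KO and 7.70 ± 0.09 in WT testes (SD, n = 2 pools each), a log2 difference of -0.076 (SE of 0.12, adjusted p = 0.9995 from limma). The gap of 0.33 between the 2 KO pools was larger than the difference between genotypes, and 92.3% of all named probe sets had a smaller range over the 4 arrays. Without KO replicate 1 the log2 difference was 0.090, and without KO replicate 2 it was -0.24. The 95% interval of the fold was 0.762 to 1.18.

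Hao2, on chromosome 3 (bases 98874519 to 98895376), stood at 6.02 and 6.24 in KO testes, against 6.25 and 6.08 in WT testes. Replicate 1 was the lower KO array but the higher WT array, so that the genotypes were interleaved. The log2 difference was -0.036 (SE of 0.10, adjusted p = 0.9995 from limma), with means of 6.127 ± 0.15 in KO and 6.16 ± 0.12 in WT testes (SD, n = 2 pools each). The 95% interval of the fold was 0.816 to 1.17, and the sign turned without KO replicate 1 (0.074) and without WT replicate 1 (0.050). The median signal was 6.08 on the dimmest array and 6.11 on the brightest, and Hao2 was above its array's median on 2 of the 4 arrays.

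Hsd11b1, on chromosome 1 (bases 193221640 to 193264045), gave 4.63 and 4.58 in KO testes, against 4.63 and 4.59 in WT testes. These 4 values spanned 0.048, and 6.32% of named probe sets had a smaller range. The log2 difference was -0.0031 (SE of 0.051, adjusted p = 0.9995 from limma), and it was 0.0063 when each array was centred on its median. The fold had a 95% interval of 0.911 to 1.09. The signal of Hsd11b1 was below the array median on all 4 arrays. It is listed as a Leydig cell gene, and these arrays do not show whether it was detected above background.

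The probe set that Insl3 shares with Jak3 was at 8.20 and 8.46 in KO testes, against 8.34 and 8.29 in WT testes. The WT pair lay between the KO pair, as for Nr5a1. The means were 8.33 ± 0.18 in KO and 8.32 ± 0.04 in WT testes (SD, n = 2 pools each), and the log2 difference was 0.012 (SE of 0.095, adjusted p = 0.9995 from limma). The 95% interval of the fold was 0.851 to 1.196. Leaving out KO replicate 1 gave 0.14, and leaving out KO replicate 2 gave -0.12. How much of this signal comes from the hormone and how much from the kinase was not tested.

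**Figure D1:**
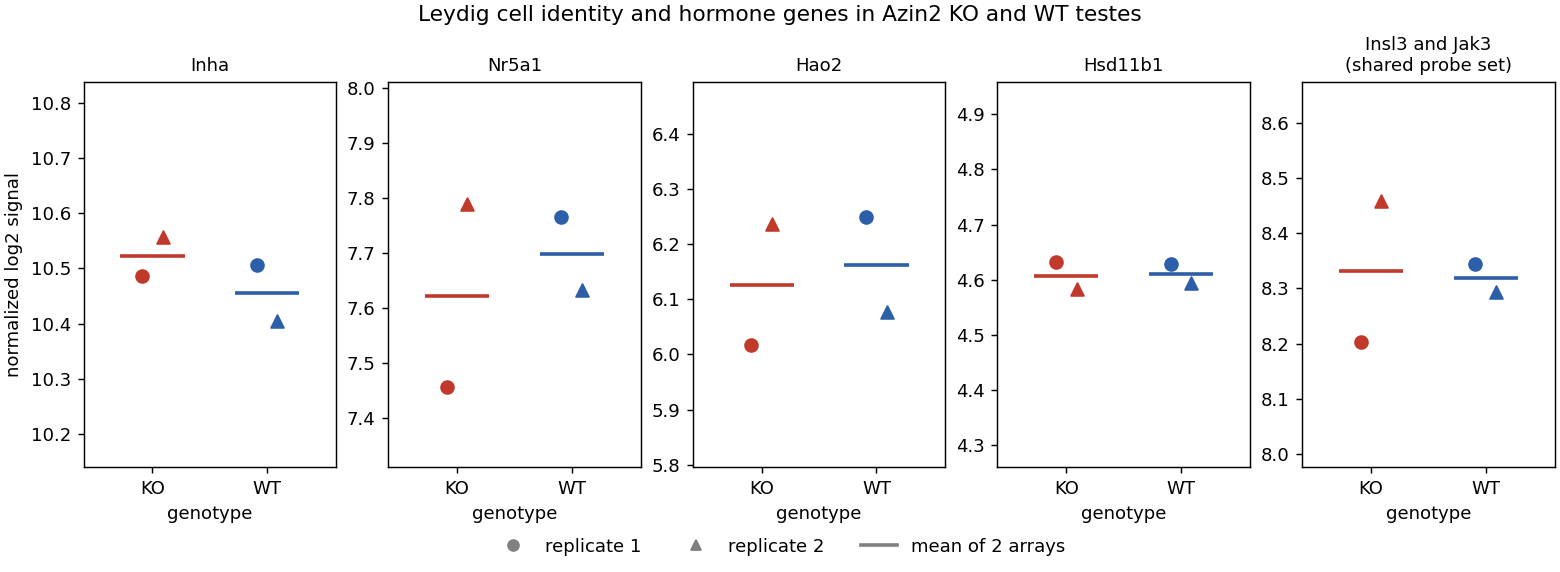
Normalized log2 signal (vertical axis) of the 5 probe sets in KO (red) and WT (blue) testes, with circles for replicate 1, triangles for replicate 2 and bars for the mean of 2 arrays. Every panel spans the same height on the log2 scale; KO and WT overlap in all 5, and the KO pools of Nr5a1 stand 0.33 apart.

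The genes that work with these hormones and receptors were read from a list of 37, of which 33 had a value, and 0 of the 33 passed an adjusted p of 0.05 or an unadjusted p under 0.05 from limma. Their median log2 difference was 0.029, beside 0.011 for all 18820 genes with a value. Of the 33, 7 had both KO arrays above both WT arrays and 4 had both below, beside 20.1% and 12.3% of all named probe sets. Around inhibin, both β subunit genes were in the first group. Inhba (activin and inhibin βA) was at 6.004 and 5.85 in KO and 5.79 and 5.65 in WT testes, a log2 difference of 0.20 (SE of 0.083). Inhbb (βB) was at 7.83 and 7.82 in KO and 7.72 and 7.68 in WT testes, a log2 difference of 0.12 (SE of 0.049). Tgfbr3, which encodes betaglycan, the co-receptor that gives inhibin its affinity for activin receptors, had both KO arrays (8.25 and 8.37) below both WT arrays (8.43 and 8.62), a log2 difference of -0.21 (SE of 0.087). The adjusted p of each of the 3 was 0.9995 from limma. The other inhibin partners with a value lay near 0. Acvr2a and Acvr1b overlapped, each at a log2 difference of -0.031. Acvr2b (0.036) and Igsf1 (0.033) had both KO arrays above both WT arrays.

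Of the nuclear factors that act with SF-1, Nr0b1 (DAX-1), a repressor of SF-1, had a log2 difference of 0.075 (SE of 0.055), with 10.29 and 10.21 in KO and 10.19 and 10.16 in WT testes. Nr0b2 (SHP), a second repressor of this family, was dim, at 5.26 and 5.08 in KO and 5.41 and 5.31 in WT testes, a log2 difference of -0.19 (SE of 0.081). For both, KO and WT did not overlap, in opposite directions, and neither passed the test. The GATA factors of the gonad differed less, with log2 differences of 0.057 for Gata4 and -0.061 for Gata6. The Gata4 arrays overlapped, at 8.41 and 8.67 in KO and 8.60 and 8.36 in WT testes, and those of Gata6 did not.

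Lhcgr and Prlr have no value here, but genes that act downstream of their receptors do. Of the cyclic AMP pathway that serves the luteinizing hormone receptor, Gnas (the stimulatory G protein) had a log2 difference of 0.043 and Prkar1a (a regulatory subunit of protein kinase A) one of -0.062. Downstream of the prolactin receptor, Stat5b, a transcription factor, had a log2 difference of 0.093 and Stat5a one of 0.051. Jak2 and Cish, listed for the same receptor, went the other way, each at -0.056. Socs2, a feedback inhibitor of this pathway, was at 8.24 and 8.83 in KO and 8.24 and 8.39 in WT testes, with KO replicate 2 above the rest, and its log2 difference of 0.22 (SE of 0.20) was -0.070 without that array. Rxfp2, the receptor of INSL3, was at 4.91 on each of the 4 arrays, below the median of every array. For Hsd11b1, H6pd, which supplies its cofactor in the endoplasmic reticulum, had a log2 difference of 0.060, and the glucocorticoid receptor gene Nr3c1 one of 0.038.

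Of 15 close relatives of the 8 genes, 14 had a value and 0 passed the test, with a median log2 difference of 0.043. Insl6, a relaxin family peptide made in the testis, spanned 10.49 to 10.53 on the 4 arrays (log2 difference 0.017). Fshr, the gonadotropin receptor of Sertoli cells, had a log2 difference of 0.15 (SE of 0.11), which was 0.011 when KO replicate 2 was left out and 0.29 when KO replicate 1 was. Tshr, the receptor of thyroid-stimulating hormone and the other close relative of Lhcgr, was at 6.39 and 6.85 in KO and 6.73 and 5.77 in WT testes. Its log2 difference of 0.37 (SE of 0.34) was the largest of the 14, the genotypes overlapped, and it was -0.11 when WT replicate 2 was left out. Nr5a2 had one of 0.042, and Hsd11b2, the enzyme that inactivates glucocorticoids, one of 0.044. Hao1, the liver paralogue of Hao2, was dim, with both KO arrays (4.23 and 4.31) below both WT arrays (4.35 and 4.51) and a log2 difference of -0.16. The neighbours of Akr1b7 in its gene cluster, Akr1b8 and Akr1b10, had log2 differences of 0.089 and 0.0047, and whether their probes also take up Akr1b7 RNA was not tested.

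**Figure D2:**
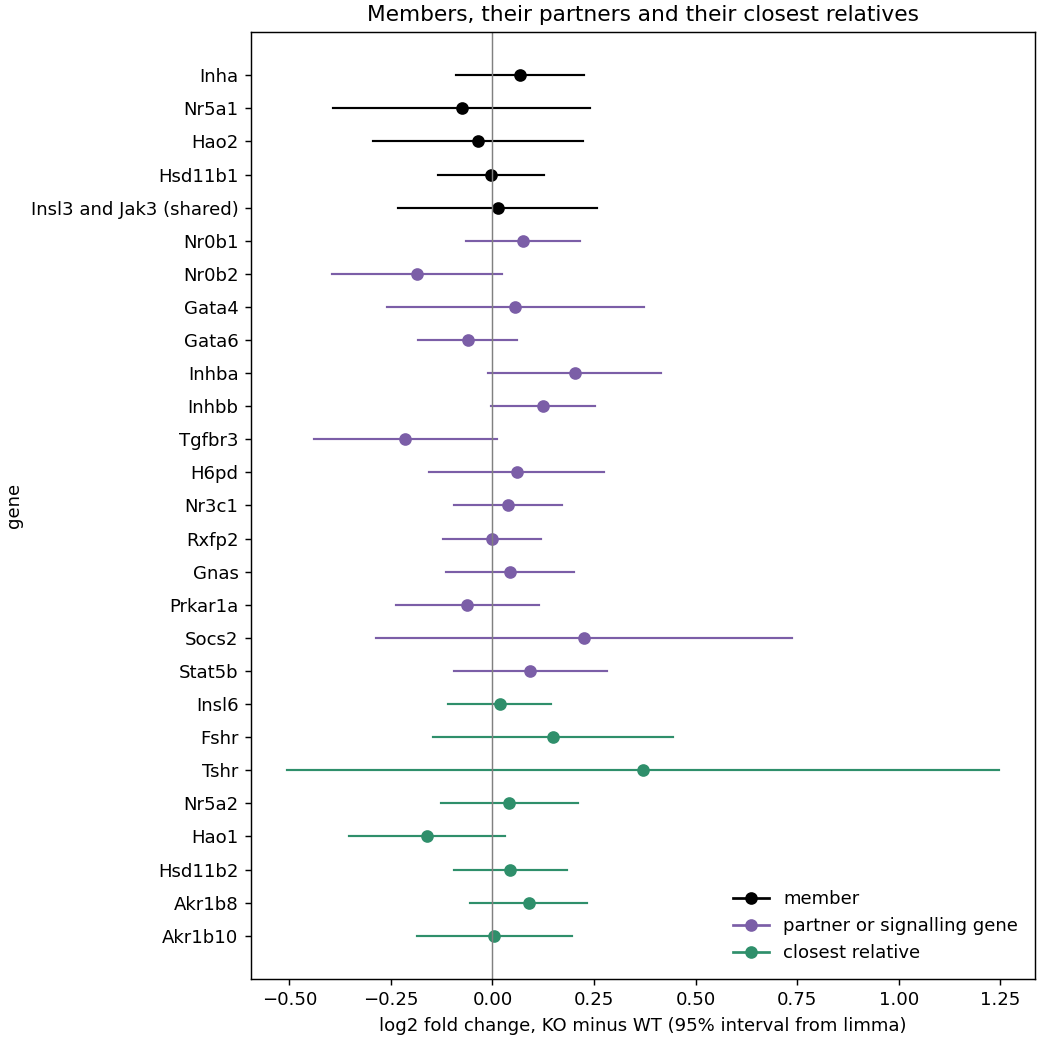
Log2 difference, KO minus WT (horizontal axis), for the 5 member probe sets (black), 14 partner or signalling genes (purple) and 8 close relatives (green), with 95% intervals from limma. Every interval shown includes 0, and the differences run from -0.21 for Tgfbr3 to 0.37 for Tshr.

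KO and WT arrays overlapped in all 5 probe sets, so pools of at least 1 genotype necessarily lay farther apart than the genotype means. KO replicate 1 was the lowest of the 4 arrays for Nr5a1, Hao2 and the shared Insl3 and Jak3 probe set, and in 21.7% of all named probe sets. KO replicate 2 was lowest for Hsd11b1 (22.2% of all) and WT replicate 1 for 0 of the 5 (25.9% of all). In KO replicate 1 these 3 stood at -0.20, -0.13 and -0.12 relative to their means over the 4 arrays. They stood at 0.13, 0.092 and 0.13 in KO replicate 2, at 0.10, 0.10 and 0.019 in WT replicate 1, and at -0.029, -0.068 and -0.031 in WT replicate 2. Among 13 other Leydig cell markers with a value, 12 also had KO replicate 1 as their lowest array. Inha was lowest in WT replicate 2, which was the lowest array in 30.2% of all named probe sets, and so were 9 of 9 Sertoli cell markers and 4 of 5 markers of interstitial and progenitor cells. In whole testis, fewer cells of a type and less RNA in each cell cannot be told apart, and the part of cell content in these differences between pools was not tested.

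The summed log2 signal of the 13 Leydig cell markers was 121.9 and 125.2 in the KO pools, against 126.5 and 125.4 in the WT pools. All 13 had a log2 difference below 0, beside 8166 of 18820 genes, with a median of -0.13. That median was -0.023 when KO replicate 1 was left out, -0.019 when WT replicate 1 was, and -0.26 when KO replicate 2 was. Of the 13, 4 had both KO arrays below both WT arrays and 0 had both above, beside 12.3% and 20.1% of named probe sets. An adjusted p of 0.05 was passed by 0 of them. Unadjusted, 2 had a p under 0.05 from limma, Sult1e1 and Vcam1, beside 4.1% of all. Vcam1 was at 9.81 and 9.94 in KO and 10.05 and 10.10 in WT testes, a log2 difference of -0.20. Sult1e1, an enzyme that inactivates estrogens by sulfation, was the farthest from 0, at a log2 difference of -1.02 (adjusted p = 0.9995 from limma). Its signals were 8.72 and 9.34 in KO and 10.05 and 10.05 in WT testes. Next was Hpgds, a prostaglandin D synthase, at 4.82 and 4.91 in KO and 4.88 and 5.33 in WT testes. Its log2 difference of -0.24 rested on WT replicate 2, and was -0.014 when that array was left out and -0.47 when WT replicate 1 was. For the 9 Sertoli cell markers the sums were 73.0 and 73.9 in KO and 73.2 and 71.9 in WT testes, and all 9 had a log2 difference above 0, with the hormone gene Amh at 0.21. Amh depended on the KO pools, with 0.044 when KO replicate 2 was left out and 0.38 when KO replicate 1 was. Their median was 0.10, which became 0.013 when WT replicate 2 was left out, 0.044 when KO replicate 2 was, and 0.20 when WT replicate 1 was. Macrophage markers also had KO replicate 1 lowest in 4 of 7, with sums of 47.6 and 49.5 in KO and 48.6 and 50.6 in WT testes. Endothelial markers had all 5 log2 differences below 0 and KO replicate 1 lowest in 3 of 5, with sums of 32.0 and 32.5 in KO and 32.7 and 32.5 in WT testes. Adipocyte markers had it lowest in 3 of 4, with sums of 22.3 and 22.9 in KO and 23.0 and 22.8 in WT testes. The 6 spermatid markers ranged from 71.3 to 71.4 in sum over the 4 arrays. Of 8 epididymis and vas deferens markers, 7 were below the median of every array. Of the genes that mark fetal Leydig cells or the adrenal cortex, 4 of 5 were also below it. The remaining one, Cyp21a1, the steroid 21-hydroxylase, was at 6.72 and 9.01 in KO and 8.66 and 7.74 in WT testes, with the lowest array again KO replicate 1 and the KO pools farther apart than the WT pools. These values are from its brightest probe set, at a log2 difference of -0.34 (SE of 0.79). The mean of its probe sets gave -0.12 (SE of 0.54).

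**Figure D3:**
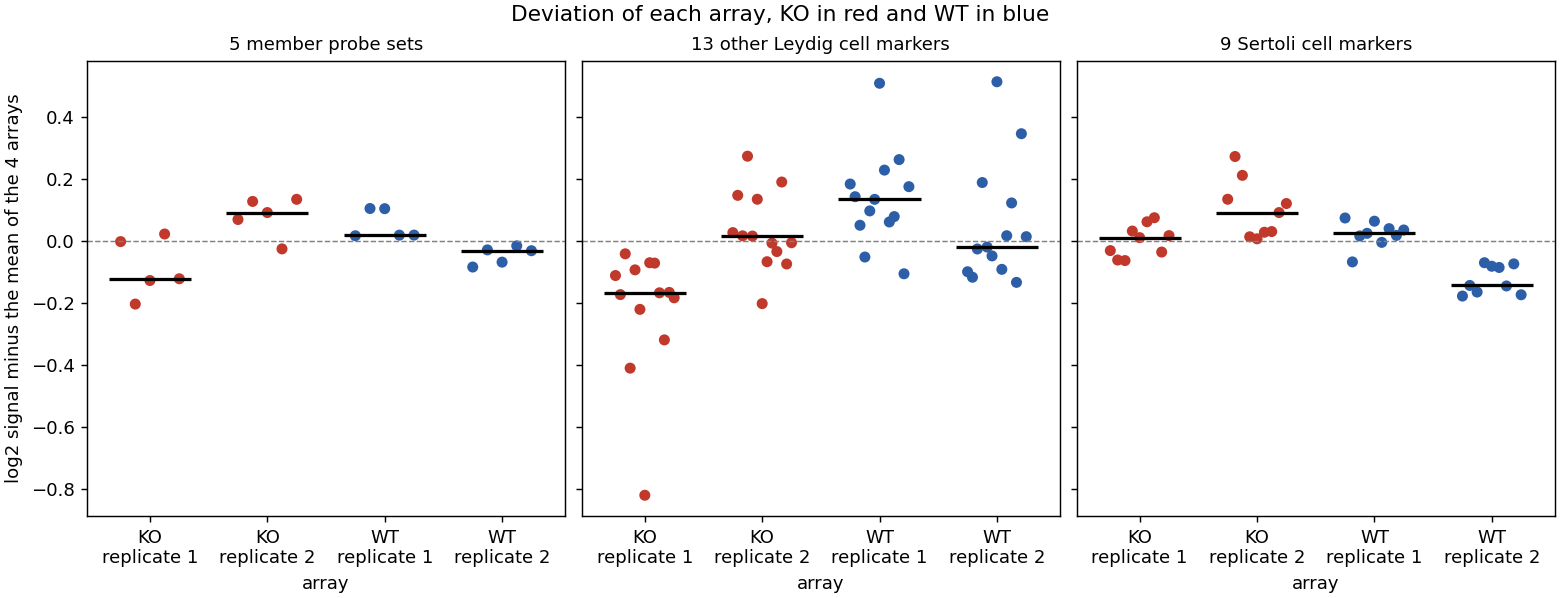
Log2 signal of each array minus the gene's mean over the 4 arrays (vertical axis), for the 5 member probe sets, 13 other Leydig cell markers and 9 Sertoli cell markers. Each point (red for KO, blue for WT) is 1 probe set on 1 array, and black bars are medians. KO replicate 1 is lowest for 12 of 13 Leydig cell markers and WT replicate 2 for 9 of 9 Sertoli cell markers.

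The mean of the 4 members with a value of their own, relative to their means over the arrays, was -0.078 and 0.066 in the KO pools, against 0.061 and -0.049 in the WT pools, replicate 1 first. Of 1876 genes whose values spanned at least 0.3 on the log2 scale, the one most like this profile was Cyp11a1, the side-chain cleavage enzyme that begins steroid synthesis (Pearson r = 0.9997 over 4 arrays). Its signals were 10.38 and 10.70 in KO and 10.69 and 10.43 in WT testes, so that it also had replicate 1 as the lower KO array and the higher WT array. Tmem160 (r = 0.9992), Rmdn3 (0.998), Copz2 (0.998) and Qtrt1 (0.998) followed, and 19 genes reached 0.99. With 4 arrays these values are a description, and all the points come from the same 4 pools. Other Leydig cell markers in that set ranked from 27 (Ptgds, a prostaglandin D synthase, r = 0.983) and 55 (Hsd17b3, the enzyme of the last step to testosterone, r = 0.964) to 1218 (Hpgds, r = -0.298). Between them were Tspo (444, r = 0.732), Scarb1 (622, r = 0.574) and Hsd3b1 (654, r = 0.549). The markers Star, Cyp17a1, Hsd3b6, Fdx1 and Vcam1 spanned less than 0.3 and were not ranked. Ptgds and Hsd17b3 were chosen after their values were seen. Sult1e1, the Leydig cell marker with the largest difference between genotypes, ranked at 786 (r = 0.394). The profile of the members holds little difference between genotypes, so a gene that differs mainly between genotypes ranks low on it by construction.

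Across the series, Azin2 itself had signals of 7.25 ± 0.16 in KO and 10.08 ± 0.11 in WT testes (SD, n = 2 pools each) and was the single probe set past an adjusted p of 0.05 (0.0250 from limma). Between any 2 of the 4 arrays, the differences over probe sets had an SD of 0.156 to 0.181, with 0.169 between the KO pools and 0.166 between the WT pools. All 5 spermatocyte and all 6 spermatid markers were above the median of every array.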

How the data were processed

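Testis RNA pooled from 3 mice per array was measured on 4 Affymetrix Mouse Gene 1.1 ST arrays. The labels describe labelling with a kit for 3' in vitro transcription, although this array design is read along whole transcripts; which labelling was used is not settled by the sources, and so neither is how evenly each probe set reads its transcript. The authors deposited log2 signals per probe set after RMA, and the submitters' processing notes name Partek 6.13.1224; genome build and annotation version are not given in the sources used here. RMA brings the probe intensities of the arrays to one distribution before they are summarized, so a shift common to most genes would not be seen. The array medians of the deposited values still differed slightly, from 6.08 to 6.11. The table has 35556 probe sets, of which 21218 carry a single symbol, 1881 carry more than 1 and 12457 none in the annotation used here. Symbols were updated through gene identifiers, and a gene's value is its single-symbol probe set with the highest mean. Those with more than 1 symbol were kept in the test without being credited to any gene. KO was compared with WT by lmFit and eBayes (limma 3.58.1, R 4.3.3) over all named probe sets, with no filter and with Benjamini-Hochberg adjustment. The prior had 2.96 degrees of freedom. After the fit to the arrays, the same fit was run on simulated data (5 sets, each with 200 changed probe sets). The simulation used the means and the spread estimated from these arrays, and its outcome is not given here. Arrays limit precision by their number, 2 for each genotype. The deviations of same-numbered arrays from their genotype means correlated at -0.082, and no label pairs them.

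The members, lists and rules were chosen with earlier results of these data known. The rule names the 8 members, their partners and relatives, the genes with the largest changes of the lists set beside them, and the 5 genes most like their mean. Only some of the partners, relatives and largest changes are described above. Not described are, for example, Lyz2 (log2 difference -0.56) and Cd14 (0.23) of the macrophage markers, Fabp4 (-0.31) of the adipocyte markers and Cyp11b2 (0.18) of the adrenal markers. Stat5a, Jak2, Cish, Vcam1, Acvr2a, Acvr1b, Acvr2b and Igsf1 were not followed through the alternatives. Alternatives were an intensity trend, the ordinary test, quantile normalization, median centring, a filter on dim probe sets, every row of the table, the replicate number as a block, the mean of a gene's probe sets and each array left out. Plots used matplotlib 3.10.9 (Python 3.11.15).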

Additional observations from a re-analysis of the deposited data

How the results depend on the processing

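No member probe set passed an adjusted p of 0.05 under any alternative run (the lowest was 0.920, for Inha without WT replicate 1, from limma), and the count over all named probe sets was 1, against 0 by the ordinary equal-variance test and 0 with every probe set of the table tested. In both, Azin2 no longer passed, at a log2 fold change of -2.83. Leaving out 1 array at a time, and taking the remaining lone array to vary like the other genotype, that count ranged from 0 to 2, and 1 to 4 of the 5 member probe sets no longer overlapped, as 1 array is then set against 2. The log2 fold change of Inha stayed above 0 in all alternatives run (0.017 to 0.12 when an array was left out). Those of the others changed sign at least once: -0.12 to 0.14 for the probe set shared by Insl3 and Jak3, -0.24 to 0.090 for Nr5a1, -0.15 to 0.074 for Hao2, -0.027 to 0.021 for Hsd11b1. Median centring turned Hsd11b1 (0.0063) and Rxfp2 (0.0082). Of the 32 other genes followed, 16 changed sign without 1 array: -0.0035 to 0.0011 for Rxfp2, -0.011 to 0.097 for Gnas, -0.13 to 0.0066 for Prkar1a, -0.076 to 0.19 for Gata4, -0.070 to 0.52 for Socs2, -0.041 to 0.16 for H6pd, -0.0017 to 0.036 for Insl6, -0.029 to 0.11 for Nr5a2, -0.062 to 0.071 for Akr1b10, -0.19 to 0.13 for Cyp11a1, -0.29 to 0.18 for Tmem160, -0.25 to 0.14 for Rmdn3, -0.27 to 0.17 for Copz2, -0.27 to 0.15 for Qtrt1, -1.48 to 0.81 for Cyp21a1, -0.11 to 0.85 for Tshr. Among those that kept their sign, values moved over 0.011 to 0.29 for Fshr, -0.47 to -0.014 for Hpgds, 0.044 to 0.38 for Amh, 0.12 to 0.28 for Inhba, -0.31 to -0.12 for Tgfbr3, -0.28 to -0.094 for Nr0b2 and -1.33 to -0.71 for Sult1e1. That of Azin2 ranged from -2.94 to -2.72. The cause was not tested. With the replicate number as a block the count was 1, Nr5a1 was at -0.076 and Inha at 0.067, and no call on a member changed. The counts of markers by lowest array were chosen after seeing the data: 12 of 13 for Leydig cells became 10 with median centring and stayed 12 with quantile normalization, and 9 of 9 for Sertoli cells stayed 9 in both. With 2 arrays for each genotype, differences inside the intervals given were not detectable, and dim probe sets such as Hsd11b1 and Rxfp2 say little about their genes.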
